A study of Mus musculus with 8 samples.

Results

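Penk, Npy, Cck, Cpe and Cbln1 are 5 genes of peptide and secreted neural signalling, and they were followed here in embryonic mouse gonads. All probe sets annotated to them were taken, 8 of the 12422 probe sets that are not array controls, for 5 of the 8252 genes with a probe set of their own. The genes were chosen from their values on these same arrays, so their levels and differences are given as a description with no test. Of the 8 probe sets, 7 passed the filter on low values (above a floor of 6.99 on the log2 scale on at least 2 arrays), and the remaining one, Penk 161164_r_at, lay below the floor on all 8 arrays, between 2.52 and 3.41.

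The arrays held total RNA of whole embryonic gonads of Wnt4 knock-out (KO) and wild type (WT) mice, male and female, at embryonic days 14.5 and 12.5 (E14.5, E12.5). The 8 groups were KO male E14.5, WT male E14.5, KO female E14.5, WT female E14.5, KO male E12.5, WT male E12.5, KO female E12.5 and WT female E12.5, each with 1 Affymetrix MG_U74Av2 array and no replicate. Wnt4 encodes a secreted ligand needed for ovary development in the mouse. The sources used here do not give the knock-out allele, the strain or the number of gonads behind each array. Values are median-centred log2 signals, and having 1 array a group limits their precision.

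Neuropeptides are made as long precursors, cut by proprotein convertases, trimmed by carboxypeptidase E, stored in dense-core granules and released to act on G-protein-coupled receptors. Penk encodes the precursor of the enkephalins, the opioid peptides, Npy encodes the precursor of neuropeptide Y, a peptide of the sympathetic nervous system and brain, and Cck encodes the precursor of cholecystokinin, a peptide of gut and brain. Cpe encodes carboxypeptidase E, which removes basic residues from the cut peptides, and Cbln1 encodes cerebellin 1, a secreted protein of the C1q family that ties neurexins to the receptor GluD2 at cerebellar synapses. Several of these genes are also transcribed outside the nervous system, and proenkephalin transcripts are known from germ cells and somatic cells of the rodent testis.

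Promoter sequences of RefSeq (GRCm38.p6) were found for 2 of the 5 genes, Npy and Cck. They are shown because these genes differed between KO and WT in opposite directions. Npy did so in all 4 pairs of arrays, and Cck in both pairs in which it lay above the floor. Each sequence is the 250 bases before the transcription start, 5′ to 3′ on the strand of the gene, at chr6:49822460-49822709 on the plus strand for Npy and at chr9:121495695-121495944 on the minus strand for Cck. Capitals mark matches, on either strand, to any of 4 short motifs. The core of the cAMP response element (CRE) was searched as TGACG and the core of the TCF/LEF site, through which Wnt signals act, as CTTTGA. The half-site of the gonadal and adrenal factor SF-1 was searched as AGGTCA and the site of GATA factors as AGATAA.
Npy: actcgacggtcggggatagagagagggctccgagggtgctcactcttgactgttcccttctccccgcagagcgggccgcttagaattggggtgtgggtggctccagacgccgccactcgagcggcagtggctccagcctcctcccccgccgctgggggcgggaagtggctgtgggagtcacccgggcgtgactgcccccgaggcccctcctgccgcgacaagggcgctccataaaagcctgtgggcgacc
Cck: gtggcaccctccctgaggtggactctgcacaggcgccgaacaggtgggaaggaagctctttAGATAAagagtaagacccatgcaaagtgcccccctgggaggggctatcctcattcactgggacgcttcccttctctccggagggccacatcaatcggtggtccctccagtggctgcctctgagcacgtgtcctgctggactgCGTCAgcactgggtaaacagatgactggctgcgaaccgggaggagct
The Npy window is 69.2% G and C and held no match to any of the 4 motifs. The Cck window is 60% G and C. It held 1 match to the CRE core, written CGTCA because it lies on the reverse strand, 47 bases before the start, and 1 match to AGATAA on the forward strand, 189 bases before the start. Of 32851 mouse promoter windows of 250 bases, 17.8% held the CRE core, 13.8% the TCF/LEF core, 14% the SF-1 half-site and 9.99% the GATA site on either strand. The letters describe these windows only.

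Some arrays stood apart, and this touches several results. Across probe sets, Pearson r was 0.996 between the KO and the WT male array of E14.5, 0.883 to 0.907 between either of them and the other 6, and 0.979 to 0.997 among those 6, so results that rest on E14.5 males are given beside those without them. What is peculiar to these arrays and what is due to male gonads of that age cannot be told apart. The array labelled WT female E14.5 went against its label in part. Eif2s3y, a Y-linked gene, was at 4.86 on the KO female array of that stage, against 7.63 on this one. Kdm5d and Uty, also Y-linked, lay below the floor on all 8 arrays, so their levels are not read. Xist was at 7.10 on this array, the lowest of the 4 female arrays. That level was still well above the male arrays, where Xist lay between 4.07 and 4.79. Markers of testis cells were also high on this array. The summed signal of the Sertoli cell list was 2807 in KO against 4630 in WT females of E14.5, that of the Leydig cell list 3191 against 5294, and Cyp17a1, an enzyme of androgen synthesis, was at 8.13 against 10.36. Wnt4 itself was lower on the KO array in each of the 4 pairs: at E14.5 it was at 9.19 in KO males against 9.42 in WT males and at 8.32 in KO females against 9.45 in WT females, and at E12.5 at 8.34 in KO males against 9.26 in WT males and at 8.59 in KO females against 10.19 in WT females. The sources used here do not say whether its probe set lies in the deleted part. Nr5a1, Wt1 and Gata4, which mark the somatic cells of the gonad, lay between 8.41 and 11.94 on every array, above the floor.

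**Figure D1:**
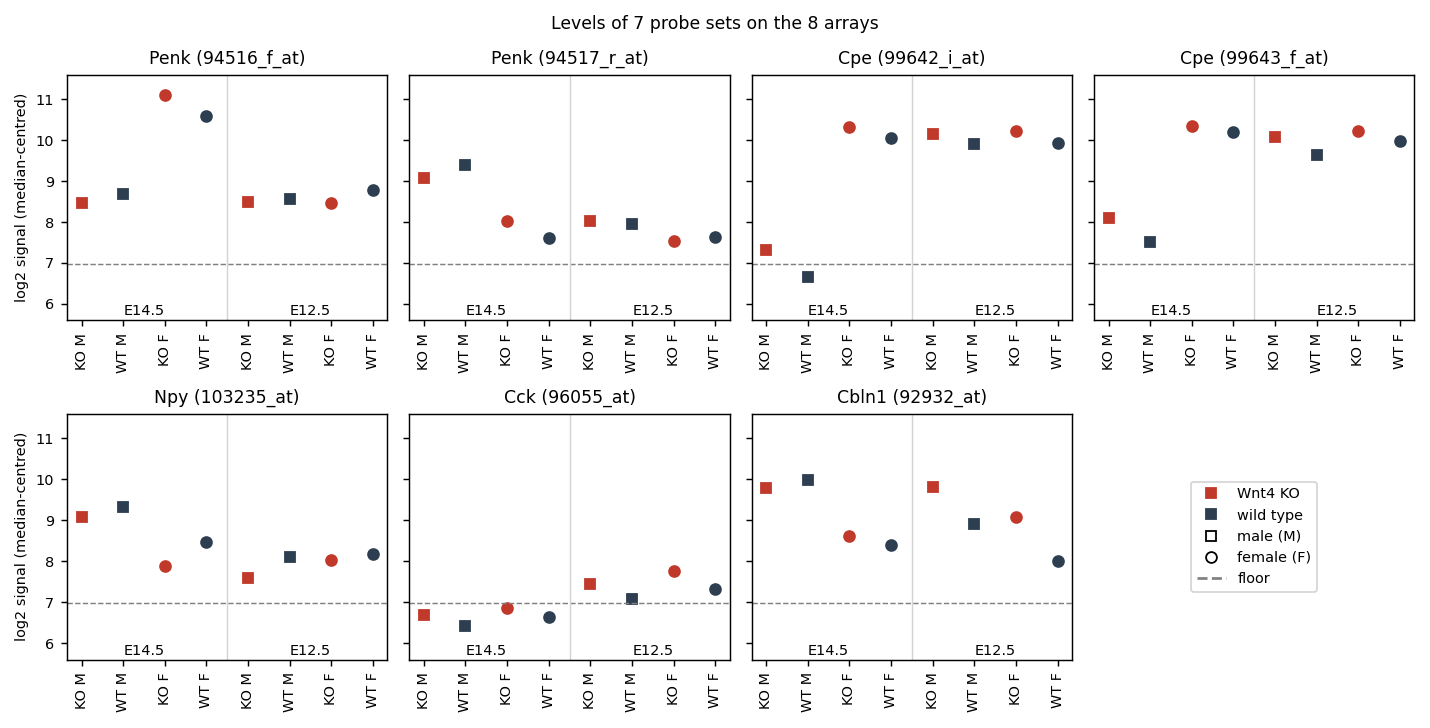
Median-centred log2 signal of the 7 probe sets of Penk, Cpe, Npy, Cck and Cbln1 that passed the filter, 1 panel each, on the 8 arrays; red points are KO arrays, dark points WT arrays, squares males, circles females, and the dashed line is the floor of 6.99. Penk 94516_f_at is high on both E14.5 female arrays (11.11 and 10.58), and both Cpe probe sets are low on both E14.5 male arrays.

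Penk had its highest signal in E14.5 females by 1 probe set and in E14.5 males by the other, so the gene has no single pattern on these arrays. By 94516_f_at, Penk was at 8.46 in KO males against 8.69 in WT males and at 11.11 in KO females against 10.58 in WT females at E14.5. At E12.5 it was at 8.49 in KO males against 8.55 in WT males and at 8.46 in KO females against 8.78 in WT females. The 2 E14.5 female arrays stood high, and the other 6 lay within 8.46 to 8.78. Between the stages the difference (E14.5 minus E12.5) was 2.64 in KO females, or 6.25-fold, and 1.79 in WT females, or 3.47-fold. In KO females 2 of the 8452 fitted probe sets, Penk among them, differed by as much, and in WT females 11 did. As Penk was chosen on these values, nothing is read from these counts. The fit put the female stage difference of this probe set at 2.22 ± 0.21 (SE) and that of males at 0.05 ± 0.21. The array labelled WT female E14.5 is not needed for this pattern, since the KO female pair alone gave the larger difference.

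By 94517_r_at, Penk was at 9.07 in KO males against 9.40 in WT males and at 8.02 in KO females against 7.61 in WT females at E14.5. At E12.5 this probe set gave 8.04 in KO males against 7.95 in WT males and 7.53 in KO females against 7.63 in WT females. Here the E14.5 males were highest, with male minus female differences at E14.5 of 1.04 in KO and 1.79 in WT gonads, where 94516_f_at gave -2.65 and -1.89. The probe sets correlated at r = -0.27 over the 8 arrays and at 0.13 over the 6 without E14.5 males, and their differences had the same sign in 6 of the 12 pairs of arrays. In Affymetrix's naming, the ending _f_at marks probes shared within a sequence family and _r_at a probe set for which some design rules were dropped, and which of them follows the Penk transcript was not tested. The KO minus WT differences of both were small at E12.5, within -0.32 to 0.09. In E14.5 females both were higher in KO gonads, by 0.53 (94516_f_at) and 0.42 (94517_r_at), and in E14.5 males both were lower, by -0.23 and -0.33.

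Germ cell markers went both ways beside the female stage difference of Penk 94516_f_at. Of 10 fitted markers, 4 were higher and 6 lower at E14.5 than at E12.5 in females of either genotype, with medians of -0.36 in KO and -0.15 in WT females. In KO females 3 were at least 2-fold higher and 2 at least 2-fold lower, and in WT females 2 were higher and 1 lower. The summed signal of the list was 6614 in KO and 6087 in WT females at E14.5, against 5649 and 4724 at E12.5. Stra8, which germ cells need to enter meiosis, was at 9.39 in KO and 8.74 in WT females at E14.5. At E12.5 it was below the floor, at 5.22 and 5.62, so its stage differences are bounds. Kit, the receptor for stem cell factor, was at 7.30 in KO and 7.68 in WT females at E14.5, against 8.73 and 8.71 at E12.5. Among markers that rose, the fitted female stage difference was 2.08 ± 0.19 (SE) for Stra8 and 1.57 ± 0.08 for Ddx4. Dazl followed at 0.81 ± 0.15 and Dppa3 at 0.68 ± 0.16. Among those that fell, it was -1.23 ± 0.11 for Kit and -1.11 ± 0.13 for Nanog, a pluripotency factor. Sox2 followed at -0.76 ± 0.09, Tfap2c at -0.63 ± 0.06, Dppa5a at -0.36 ± 0.10 and Pou5f1 at -0.15 ± 0.11. Stra8 was at 7.44 in KO males at E14.5, against 5.70, below the floor, in WT males. The part of germ cells in the Penk signal was not tested, and in these bulk samples fewer cells of a type and less RNA per cell cannot be told apart.

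Npy was lower on the KO array in all 4 pairs. At E14.5 it was at 9.07 in KO males against 9.33 in WT males and at 7.90 in KO females against 8.47 in WT females. At E12.5 it was at 7.60 in KO males against 8.11 in WT males and at 8.03 in KO females against 8.19 in WT females. The differences were thus -0.26, -0.57, -0.51 and -0.15, and the fit gave -0.38 ± 0.13 (SE) in males and -0.36 ± 0.13 in females. Of all probe sets, 3.77% were lower in all 4 KO pairs after values below the floor had been set to it; as Npy was chosen on these differences, nothing is read from this share. The sign held in all 4 pairs without centring and under quantile normalization. The female E14.5 pair, the largest, rests on the WT female E14.5 array.

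Npy was highest on the E14.5 male arrays. Male minus female, it was 1.18 higher in KO and 0.86 higher in WT gonads at E14.5, and -0.43 and -0.08 at E12.5. In males the stage difference was 1.47 in KO and 1.23 in WT gonads, against -0.14 in KO and 0.28 in WT females. Both of these contrasts rest on the E14.5 male arrays. Without centring no pair differed 2-fold for Npy, where 3 of 12 pairs did with it.

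Cck was detected at E12.5 only. It was at 7.44 in KO males against 7.07 in WT males and at 7.77 in KO females against 7.32 in WT females at E12.5. At E14.5 all 4 arrays were below the floor, at 6.69 in KO males, 6.43 in WT males, 6.87 in KO females and 6.64 in WT females, and differences between these values are not read. KO minus WT at E12.5 was 0.37 in males and 0.45 in females. The KO array of each sex was thus above its WT array at E12.5. The fit within the sexes gave 0.18 ± 0.14 (SE) in males and 0.23 ± 0.14 in females, with the E14.5 values set to the floor. The fit within E12.5, an alternative chosen after seeing the data, gave 0.41 ± 0.04 (SE) over both sexes. This SE is narrowed by the 4 E14.5 values, which were all set to the floor and so add no spread. It is not the precision of the E12.5 difference. The stage difference (E14.5 minus E12.5) was -0.45 or lower in KO and -0.08 or lower in WT males, and -0.79 or lower in KO and -0.33 or lower in WT females. These are bounds, since the E14.5 side lay under the floor. Cck was therefore lower at E14.5 in all 4 pairs, as 25.8% of all probe sets were.

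Cpe, the processing enzyme, was at its lowest in E14.5 males. By 99643_f_at it was at 8.09 in KO males against 7.51 in WT males and at 10.34 in KO females against 10.19 in WT females at E14.5. At E12.5 it was at 10.07 in KO males against 9.65 in WT males and at 10.23 in KO females against 9.99 in WT females. By 99642_i_at it was at 7.32 in KO males against 6.66 in WT males, below the floor, and at 10.31 in KO females against 10.04 in WT females at E14.5. That probe set gave 10.16 in KO males against 9.90 in WT males and 10.21 in KO females against 9.94 in WT females at E12.5. The probe sets ran together: they correlated at r = 0.99 over the 8 arrays and 0.84 over the 6 without E14.5 males, and had the same sign in 12 of 12 pairs.

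At E14.5, Cpe was lower in males than in females by -2.24 in KO and -2.67 in WT gonads (99643_f_at), and by -2.99 in KO and -3.06 or lower in WT gonads (99642_i_at). Between the stages the male difference was -1.97 in KO and -2.13 in WT gonads by 99643_f_at, and the fit gave -2.05 ± 0.07 (SE). Females differed between the stages by 0.11 in KO and 0.20 in WT gonads by the same probe set, signs that turn to -0.13 and -0.07 without centring. All of the large Cpe differences rest on the E14.5 male arrays, and without those arrays no pair of Cpe was 2-fold apart.

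Within every pair Cpe was higher on the KO array by both probe sets, as 3.14% of all probe sets were. KO minus WT by 99643_f_at was 0.58 in males and 0.15 in females at E14.5, and 0.42 in males and 0.24 in females at E12.5. By 99642_i_at it was at least 0.34 in males and 0.27 in females at E14.5, and 0.25 in males and 0.27 in females at E12.5. The fitted KO difference of 99643_f_at was 0.50 ± 0.07 (SE) in males and 0.19 ± 0.07 in females, and that of 99642_i_at 0.30 ± 0.06 in males and 0.27 ± 0.06 in females. The KO differences of E12.5 alone, which use no E14.5 male array, have the same sign.

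Cbln1 was higher on the KO array of both sexes at E12.5. At E14.5 it was at 9.78 in KO males against 9.98 in WT males and at 8.62 in KO females against 8.39 in WT females. At E12.5 it was at 9.81 in KO males against 8.91 in WT males and at 9.08 in KO females against 8.00 in WT females. KO minus WT at E12.5 was 0.90 in males, or 1.87-fold, and 1.08 in females, or 2.11-fold. In the female pair 3 of 8452 probe sets, Cbln1 among them, were as high, and in the male pair 8 of 8441. As Cbln1 was chosen on these values, nothing is read from these counts. At E14.5 the differences were -0.20 in males and 0.24 in females, the female one resting on the WT female E14.5 array. The fit within the sexes, over both stages, gave 0.35 ± 0.32 (SE) in males and 0.66 ± 0.32 in females. Fitted within the stages, an alternative chosen after seeing the data, it was 0.02 ± 0.13 at E14.5 and 0.99 ± 0.13 at E12.5. The difference between the stages was not tested.

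Cbln1 was also higher in males than in females of either genotype at both stages. Male minus female, it was 1.15 in KO and 1.59 in WT gonads at E14.5, and 0.73 in KO and 0.90 in WT gonads at E12.5, so that the sex difference does not rest on the E14.5 male arrays. The fit gave 1.37 ± 0.13 (SE) at E14.5 and 0.81 ± 0.13 at E12.5. Sertoli cell markers moved with it: of 9 fitted markers, 9 were higher in males in KO gonads and 8 in WT gonads at E14.5, and 8 in either genotype at E12.5, with medians of 0.71, 0.91, 0.90 and 1.25. Leydig cell markers did as well: of 9 fitted, 7 were higher in males in each of the 4 pairs, with medians of 0.61 in KO and 0.87 in WT gonads at E14.5 and 0.27 in either at E12.5. Of 9 endothelial markers, 8 in KO and 7 in WT gonads were higher in males at E12.5, and 3 in either at E14.5. A sign of RNA quality, the 3′ minus 5′ signal of actin, moved with sex too. It was 1.09 in KO males against 0.55 in KO females and 1.37 in WT males against 0.77 in WT females at E14.5. At E12.5 it was 1.10 in KO males against 0.49 in KO females and 0.96 in WT males against 0.48 in WT females. That of Gapdh did so at E12.5 only, at 0.21 in KO males against -0.003 in KO females, and 0.22 against 0.05 in WT. At E14.5 it was lower in males, at -0.09 against 0.13 in KO and -0.02 against 0.30 in WT gonads. The part of these in the Cbln1 difference was not tested.

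Beside the Cbln1 and Cck differences at E12.5, some markers of other cell types differed between KO and WT, and within several lists they went both ways. Of 5 fitted chromaffin cell markers, KO males had 2 higher and 2 lower than WT males with a median of 0, and KO females had 3 higher and 1 lower than WT females with a median of 0.22. The summed chromaffin signal was 1086 in KO against 1028 in WT males, and 1076 in KO against 885 in WT females. Th, tyrosine hydroxylase, was at 7.92 in KO against 7.37 in WT males and at 7.74 in KO against 7.13 in WT females. Pnmt, another of these markers, was at 8.36 in KO against 8.39 in WT males and at 8.33 in KO against 7.82 in WT females. Cyb561 was at 8.08 in KO against 8.14 in WT males and at 8.06 in KO against 8.08 in WT females. Of 3 adrenocortical markers, 3 were higher in KO males and 2 in KO females, and the summed signal was 900.3 in KO against 756 in WT males and 1066 in KO against 1035 in WT females. Among 6 fitted neuron markers, 5 were higher and 1 lower in KO males with a median of 0.14, and 3 higher and 2 lower in KO females with a median of 0.02. Of these, Nefm, a neurofilament subunit, was at 7.95 in KO against 7.42 in WT males and at 8.01 in KO against 7.38 in WT females. Fitted within E12.5, an alternative chosen after seeing the data, its difference was 0.58 ± 0.05 (SE). At E14.5 Nefm lay below the floor at 6.88 in KO females, 6.73 in WT females and 6.70 in WT males, which narrows this SE. The neuron markers Nefl, Nefh, Elavl3, Elavl4 and Isl1 lay below the floor on all arrays. Others of the list lay above it on all arrays: Tubb3 between 10.33 and 11.32, Uchl1 between 8.86 and 10.26 and Stmn2 between 7.18 and 8.22. Of 9 fitted endothelial markers, 9 were higher in KO males with a median of 0.21, and 6 higher and 2 lower in KO females with a median of 0.04. Pregranulosa markers were lower in KO gonads, 6 of 7 in males with a median of -0.37 and 7 of 8 in females with a median of -0.88. Of 9 Leydig cell markers, 6 were higher and 2 lower in KO males, and 6 higher and none lower in KO females, with a median of 0.10 in both. Among them Star, which brings cholesterol into mitochondria, was at 7.94 in KO against 7.04 in WT males. It was at 8.08 in KO females against 6.68, below the floor, in WT females. The same fit within E12.5 gave 1.0 ± 0.09 (SE) for Star. The part of any of these cell types in the Cbln1 and Cck values was not tested.

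**Figure D2:**
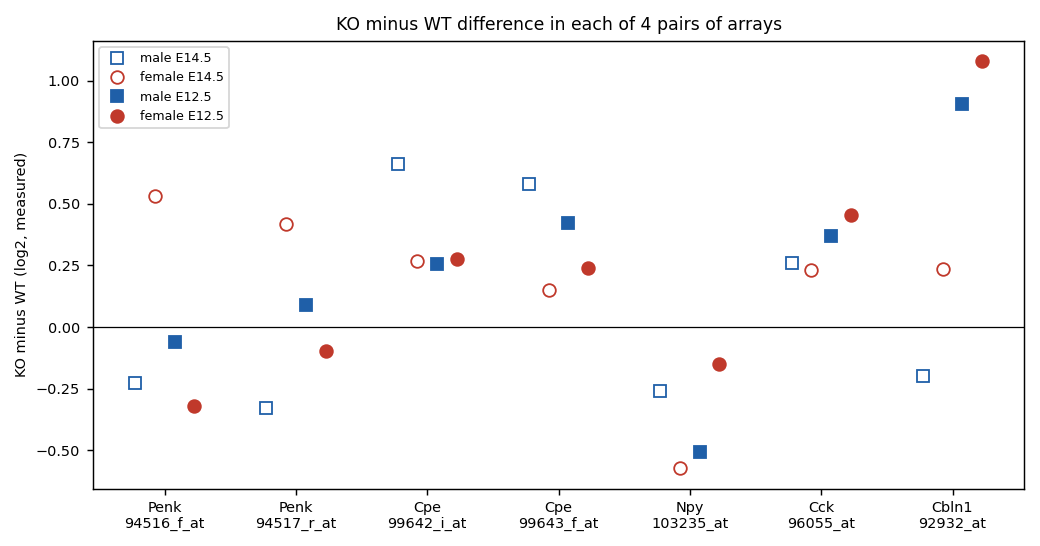
KO minus WT difference on the log2 scale for each of the 7 fitted probe sets, 1 point for each of the 4 pairs of arrays; blue squares are males, red circles females, filled points E12.5, open points E14.5. Cpe and Cck lie above 0 in all 4 pairs and Npy below 0 in all 4, while Cbln1 is above 0 at E12.5 in both sexes; the 2 E14.5 points of Cck compare values under the floor.

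Counted at 2-fold, few of the 7 fitted probe sets differed between KO and WT. In E12.5 females 1 (Cbln1) was at least 2-fold higher in KO gonads, against 0.0473% of all probe sets, and in E12.5 males none was, against 0.0711%. At 1.5-fold in both E12.5 pairs, Cbln1 was again the 1 member, against 0.13%. Between the sexes at E14.5, males had 3 probe sets 2-fold higher in KO gonads (Penk 94517_r_at, Npy and Cbln1), against 7.05%, and 3 lower (Penk 94516_f_at and both of Cpe), against 10.7%. In WT gonads the counts were 2 higher (Penk 94517_r_at and Cbln1), against 7.69%, and 3 lower, against 14%. Without centring Penk 94517_r_at was 0.61 and Npy 0.74 and Cbln1 0.72 higher in KO males, and Penk 94517_r_at 1.45 and Cbln1 1.25 higher in WT males. Over all 4 pairs of the sexes, Penk 94517_r_at and Cbln1 were higher in males, as 15.4% of probe sets were, and both of Cpe lower, as 18.4% were. For Cpe 99642_i_at the E12.5 differences of -0.06 in KO and -0.04 in WT gonads became 0.06 and 0.13 without centring.

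Between the stages, Penk 94516_f_at was the 1 probe set at least 2-fold higher at E14.5 in females, against 0.745% of all in KO and 0.568% in WT females. In males, 2 were higher in KO gonads (Penk 94517_r_at and Npy), against 7.32%, and 3 in WT gonads (these and Cbln1), against 7.5%. Without centring none of these was 2-fold higher: Penk 94517_r_at was 0.24 in KO and 0.68 in WT males, Npy 0.68 in KO and 0.46 in WT males, and Cbln1 0.30 in WT males. The 2 of Cpe were 2-fold lower in males of either genotype, against 13.7% in both. The members were chosen on these differences, so nothing is read from the counts. The KO, sex and stage comparisons also reuse the same 8 arrays and share their WT, female and E12.5 arrays.

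**Figure D3:**
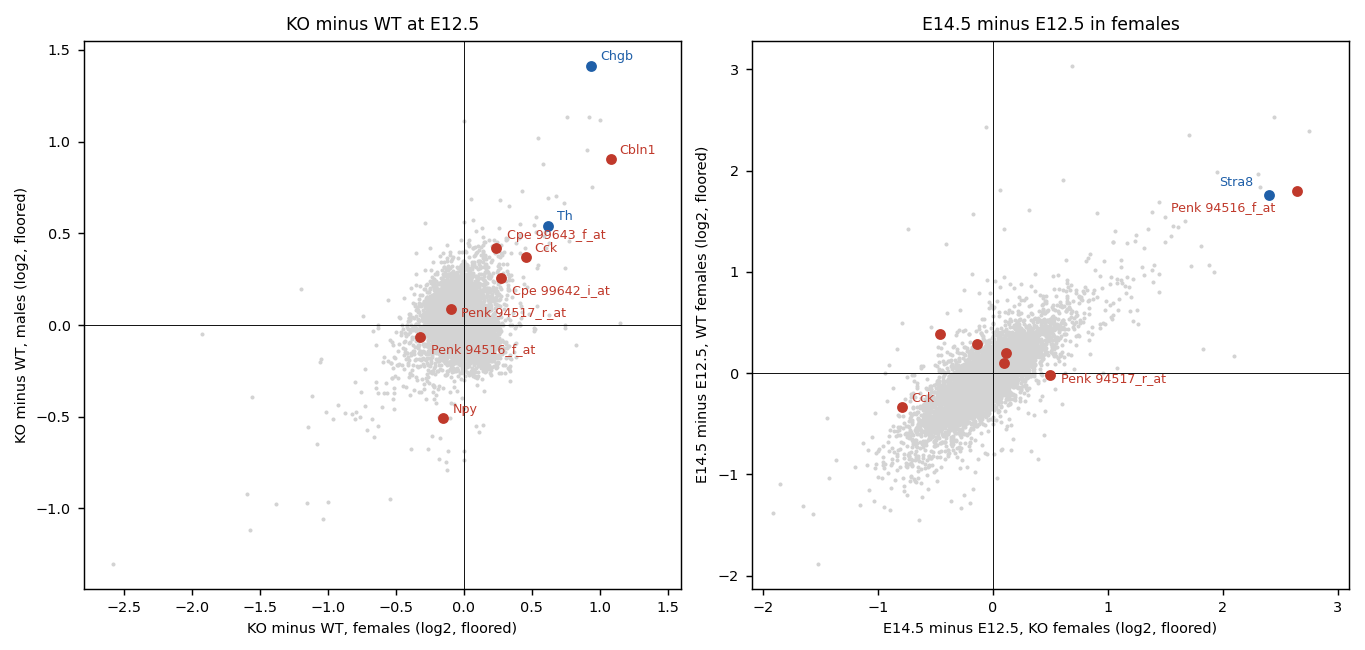
Log2 differences of all fitted probe sets (grey) with the 7 probe sets of Penk, Cpe, Npy, Cck and Cbln1 in red, after values below the floor were set to it; the left panel sets KO minus WT at E12.5 in males (y axis) against females (x axis), the right panel E14.5 minus E12.5 in WT females (y axis) against KO females (x axis). Cbln1 lies at 1.08 in females and 0.90 in males on the left, beside Chgb and Th in blue, and Penk 94516_f_at lies at 2.64 and 1.79 on the right, beside Stra8 in blue.

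Genes whose levels ran most like each member over the arrays were ranked by Pearson r as a description, with no p, since the arrays share their processing and the E14.5 male arrays their distance from the rest. For Penk 94516_f_at over 8 arrays they were Lum (r = 0.989), Fmr1nb (0.977), Spata5 (0.970) and Ocel1 (0.967). Over the 6 arrays without E14.5 males they were Hprt and Stra8 (0.998 each), Xlr4a (0.996) and Selenok (0.995), with 82 of 778 candidates above 0.95. These r values use levels without the floor. Stra8 and Xlr4a lay below it on every E12.5 array, and Fmr1nb on every array but the E14.5 females. For Cpe over 8 arrays 663 of 3617 candidates exceeded 0.95, led by Stbd1 (0.994). Over 6 arrays Lmo4 (0.970), Fabp7 (0.966), Bmp5 (0.95) and Tnnt1 (0.938) came first.

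For Npy the closest genes over 8 arrays were Cwf19l1 (0.985), Pip4k2c (0.978), Padi4 (0.971) and Rrp12 (0.968), and over 6 arrays Prss23 (0.876), Tnfrsf19 (0.865), Rpl39l and Kitl (0.839 each), so the likeness of the first set did not carry over to the second. For Cck they were Uhrf1bp1 (0.956), Arid2 (0.95), Tle3 and Nefm (0.948 each) over 8 arrays. Over 6 arrays they were Mc2r (0.983), the receptor for the pituitary hormone ACTH, Cebpd (0.979), Zfp692 (0.964) and Ptprv (0.960). Both Cck sets use its E14.5 levels, which lie below the floor. For Cbln1 over 8 arrays the closest were Th (0.942), Grk5 (0.940), Pnmt (0.917) and Col4a2 (0.914), and over 6 arrays Gas5 (0.965), Clca3a1 (0.964), Cxcl12 (0.962) and Th (0.936). Th and Pnmt encode enzymes of catecholamine synthesis. Th was the 1 gene in both Cbln1 sets.

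Many receptors of the members were under the floor. The opioid receptor genes Oprm1, Oprd1 and Oprk1 and the neuropeptide Y receptor genes Npy1r, Npy5r and Npy6r were below it on all 8 arrays, as was Cckar, 1 of the receptors of cholecystokinin. Cckbr, the other, lay between 8.08 and 8.50, Npy2r between 6.50 and 7.35, and Grid1, a delta glutamate receptor of the family that binds cerebellins, between 8.13 and 9.30. The prohormone-processing genes Pcsk1, Scg5 and Pcsk1n, and the granule genes Scg2 and Scg3, were also below the floor throughout.

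A list of 178 genes for peptide signals, their receptors, processing, granules and breakdown and for neural secreted factors, without the 5 members, was followed with limma on all probe sets, two-sided, with Benjamini-Hochberg adjustment at 0.05. Of these genes 130 had a probe set and 82 passed the filter. KO minus WT called 0 of 82 in males (background 0% higher and 0% lower) and 0 in females (0% and 0%), with 4 and 9 at an unadjusted p under 0.05. The median KO difference over the list was -0.03 in males and 0.02 in females, against 0.01 and -0.02 over all probe sets. Fitted within the stages, an alternative chosen after seeing the data, E14.5 again gave 0 of 82 (0% and 0%), with 3 at an unadjusted p under 0.05.

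Within E12.5 that fit called 1 gene of the list (background 0.0592% higher and 0.0237% lower), with 9 at an unadjusted p under 0.05. It was Chgb, which was above the floor on the 2 KO arrays of E12.5 alone and so passed the filter only through the arrays where it is high. Nothing is read from its call. Chgb encodes chromogranin B, a protein of dense-core granules. It was at 8.40 in KO males against 6.19 in WT males and at 7.92 in KO females against 6.54 in WT females, both WT arrays below the floor, so that it was at least 1.41 higher in males and at least 0.94 higher in females. The fitted difference was 1.18 ± 0.11 (SE). The call was lost under quantile normalization, with no filter on low values, without the intensity trend, and without the E14.5 male arrays or the array labelled WT female E14.5. Chga, chromogranin A, was at 7.67 in KO males against 7.52 in WT males and at 7.94 in KO females against 7.59 in WT females at E12.5.

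Between the stages in females, 8 genes of the list rose and 6 fell at E14.5, of 82, against 8.41% and 14.6% of all probe sets. Among those that rose were Ntn1, a guidance cue for axons (0.47 ± 0.07, limma adjusted p = 0.0155), Trh, the thyrotropin-releasing hormone precursor (0.38 ± 0.06, adjusted p = 0.0201), and the peptide genes Gal and Oxt (0.27 ± 0.06 each). Among those that fell were the convertase gene Pcsk5 (-0.81 ± 0.10, adjusted p = 0.0124) and Mme, which encodes neprilysin, a peptide-degrading protease that cuts enkephalins (-0.61 ± 0.10, adjusted p = 0.0197). Without centring the split was 1 higher and 32 lower, and no gene was called with no filter, without the E14.5 male arrays or without the array labelled WT female E14.5. Trh, Gal and Oxt were not called without centring.

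Between the sexes at E12.5, 5 genes of the list were called higher and 5 lower in males, against 5.32% and 4.48%. Enpep, a glutamyl aminopeptidase (0.76 ± 0.11, limma adjusted p = 0.0167), Pcsk5 (0.56 ± 0.10, adjusted p = 0.0253) and Gdnf, a growth factor of Sertoli cells and nerve (0.53 ± 0.09, adjusted p = 0.0222) were higher in males. Edn1, the endothelin 1 precursor, was lower (-0.78 ± 0.10, adjusted p = 0.0140). Without centring the split was 18 higher and 2 lower, and no gene was called with no filter, or when either the E14.5 male arrays or the array labelled WT female E14.5 were left out.

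The contrasts on the E14.5 male arrays called most of the list, as they called most probe sets. Between the stages in males 47 genes rose and 13 fell, against 38% and 39.9% of all probe sets, and without centring the split was 15 and 49. Between the sexes at E14.5, 45 were higher and 15 lower in males, against 38.2% and 36.5%, and without centring 21 and 25. Of the genes higher in these contrasts, 9 of the 47 and 9 of the 45 were above the floor on the 2 E14.5 male arrays alone, and so passed the filter only where they are high, as were 481 of 3208 and 483 of 3230 of all probe sets. The counts are therefore given with nothing read from them.

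Other prohormone-processing genes were followed beside Cpe. Of 8 fitted processing genes 5 fell at E14.5 in males and 2 rose, against 39.9% of all probe sets that fell and 38% that rose, and without centring 8 of 8 fell, when 75.7% of all probe sets did. Cpd, a carboxypeptidase of the same family as Cpe, fell by 1.38 ± 0.14 (limma adjusted p = 0.000588), Pam, which amidates peptides, by 1.33 ± 0.15 (adjusted p = 0.000783), and Pcsk5 by 1.33 ± 0.10 (adjusted p = 0.00021). The cathepsin gene Ctsl fell by 1.01 ± 0.12 (adjusted p = 0.00121) and the convertase gene Furin by 0.44 ± 0.07 (adjusted p = 0.00312). The convertase genes Pcsk4 and Pcsk7 rose, by 0.30 ± 0.05 and 0.26 ± 0.06. Without centring the 5 that fell were lower by more. All of these differences rest on the E14.5 male arrays.

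The direction of the other neuropeptide genes in males depended on the centring. Of 17 fitted genes, 15 were called higher and 1 lower at E14.5 with it, and 4 higher and 9 lower without it, when 9.41% of all probe sets were called higher and 75.7% lower. Of the 15, 3 (Cort, Edn3 and Ghrh) were above the floor on the E14.5 male arrays alone. Sct, the secretin precursor, rose by 1.44 ± 0.06 (limma adjusted p = 7.51e-05) with centring and by 0.66 ± 0.06 (adjusted p = 0.00011) without. Sst, the somatostatin precursor, rose by 0.91 ± 0.04 (adjusted p = 7.55e-05) and by 0.24 ± 0.04 (adjusted p = 0.00232). Pnoc, an opioid precursor beside Penk, rose by 1.30 ± 0.07 (adjusted p = 0.000104) and by 0.86 ± 0.06 (adjusted p = 3.44e-05). Pomc, the other, rose by 0.83 ± 0.07 (adjusted p = 0.000308) with centring, and without it the difference was 0.05 ± 0.07 (adjusted p = 0.493). All of these rest on the E14.5 male arrays.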

How the data were processed

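Gene expression was measured on 8 Affymetrix MG_U74Av2 arrays of total gonad RNA. The deposited values are log2 signals of 12488 probe sets per array, made by the authors with MAS5 per the submitters' processing notes, with no version, scaling or background step stated there. In the KO male E12.5 column 14 cells held date serial numbers (41278 to 41284, a unit other than log2 as deposited) and were set to missing. Deposited medians lay between 7.04 and 7.85, so arrays were shifted to 1 median, by 0.47 (KO) and 0.43 (WT) for males of E14.5 and by -0.34 to 0.09 for the rest. Values below the 40th percentile of all values (6.99) were set to this floor for differences and fits, so a difference with 1 side at the floor is a bound. Probe sets above it on at least 2 arrays were fitted (8452, for 6353 genes), without 66 control probe sets; 11 of them had a missing value, so pairs with the KO male E12.5 array cover 8441. Under the platform annotation 10833 probe sets had 1 gene (10817 found in the RefSeq table), 396 had several and 1193 had none. The highest-mean probe set stood for a gene outside the 5 members.

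Comparisons used limma 3.58.1 in R 4.3.3 with an intensity trend, as sex × genotype plus sex × stage (KO effect and stage difference within each sex) and as stage × genotype plus stage × sex (sex difference and KO effect within each stage). With no replicate, the 2 residual degrees of freedom are the genotype effect that differs between stages, or between sexes; moderation added 2.77 and 4.38. A genotype effect confined to 1 stage or sex therefore counts as error, errors are SEs of these fits, and p-values do not measure the spread between animals. The fits were tested on simulated data. Pair differences of 2-fold or more were counted with no test. Named genes were the 5 members, Wnt4 and the sex-check genes, and up to 3 genes per peptide list by largest pair difference. Called list genes were named up to 12 per contrast by size, and up to 3 genes per marker list by mean level. Each member also had 4 genes by Pearson r (SD of at least 0.3). Ctsl, Furin, Pcsk4, Pcsk7, Sst, Kit, Nanog, Star, Cort, Edn3 and Ghrh were named after their values were seen. So were Ddx4, Sox2, Tfap2c, Pou5f1 and the genes given as below the floor. The members and the gene lists were chosen with earlier results of these data known. Alternatives were no centring, quantile normalization, a floor at the 20th percentile, no floor, no filter, no trend and leaving out arrays.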

Additional observations from a re-analysis of the deposited data

Results flagged for a closer look

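The stage difference of Cpe had opposite signs in the sexes: E14.5 minus E12.5 was below 0 in both male pairs and above 0 in both female pairs, and the mean of the female pairs exceeded that of the male pairs by 2.98 (99642_i_at) and 2.21 (99643_f_at). Without centring the female pairs were also below 0, at -0.14 in KO and -0.16 in WT gonads for 99642_i_at, and the male side rests on the E14.5 male arrays. The sex difference of Npy, male minus female, was below 0 in both E12.5 pairs and above 0 in both E14.5 pairs, and the mean of the E12.5 pairs minus that of the E14.5 pairs was -1.28. Without centring the WT E12.5 pair turned to 0.08. The stage difference of Cbln1 was below 0 in both KO pairs and above 0 in both WT pairs, and the mean of the KO pairs minus that of the WT pairs was -0.97. The KO male pair, at -0.03, turned to 0.25 under quantile normalization. None of these differences between groups was tested.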

How the results depend on the processing

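No paired analysis was possible because each group held 1 array and the labels give no shared replicate numbers. No value of a member called at 2-fold changed sign, and Npy kept 4 negative KO differences under no centring, quantile normalization, a lower floor and no floor. Of 96 pair differences, 37 moved by more than the residual SD without centring, 18 with no floor, 9 with the floor at the 20th percentile and 2 under quantile normalization. Without the E14.5 pairs the mean KO difference was 0.99 for Cbln1 and 0.41 for Cck, against 0.51 and 0.21 over 4 pairs. The 0.21 of Cck counts its E14.5 pairs as 0, since both sides of each were set to the floor. Peptide-signal genes called between the stages in females (14) numbered 33 without centring, 25 with the floor at the 20th percentile, and 0 with no filter, without the E14.5 male arrays or without the array labelled WT female E14.5; over all probe sets these settings gave 5156, 2732, 40, 0 and 0, against 1949. Those called between the sexes at E12.5 (10) numbered 20 without centring (18 higher, 2 lower), 17 with the floor at the 20th percentile, 5 with no trend, and 0 with no filter or without either set of arrays; all probe sets called were 2240, 1488, 503, 14, 0 and 0, against 829. The call at E12.5 between KO and WT (1, Chgb) became 0 under quantile normalization, no filter, no trend and without either set of arrays, and KO minus WT at E14.5 (0) became 2, both lower, without the array labelled WT female E14.5, when all probe sets called were 206. With no floor, all probe sets called between KO and WT were 67 at E12.5 and 72 at E14.5, against 7 and 0. Without the array labelled WT female E14.5, sex differences at E14.5 called 4036 of all probe sets, where 6314 were called with it. The stage difference in males and the sex difference at E14.5 cannot be had without the E14.5 male arrays. The causes of these changes were not tested.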
